A study of Rattus norvegicus with 4 samples.

Results

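This account concerns long non-coding RNA (lncRNA) transcripts whose ratio of high over normal glucose pointed one way after 24 h and the opposite way after 48 h. The cells were primary neonatal rat cardiomyocytes, taken from Sprague-Dawley animals at an age of 1 to 2 days. The members were chosen by their measured values. A member had a mean count of 20 or more over the 4 libraries, with a transcript that a library did not list taken as 0, and a ratio of (FPKM + 0.5) of 2 or more at one time and of 0.5 or less at the other. FPKM is the read count scaled by transcript length and by the library's total. Of 17934 listed transcripts, 5038 reached the mean count and 79 were members. 37 were higher in high glucose at 24 h and lower at 48 h, which was 0.734% of the 5038, and 42 were lower at 24 h and higher at 48 h, which was 0.834%.

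The study modelled high glucose injury, with oxidative stress and apoptosis, in heart muscle cells. All 4 groups were kept in M199 medium with 2 mM carnitine, 5 mM creatine and 5 mM taurine. The normal glucose groups had 5 mmol/l glucose and 28 mmol/l mannitol, which evens out the osmolality, and the high glucose groups had 33 mmol/l glucose, each for 24 h or 48 h. The libraries are called N24 and N48 (normal glucose) and H24 and H48 (high glucose). Each group was 1 library made from total RNA, so no ratio has a replicate check, no p-value is given, and an effect of the medium and a peculiarity of 1 culture or library cannot be told apart. The labels do not say how many animals or cultures stood behind a library. In RNA from whole cultures, fewer cells of a type and less RNA per cell cannot be told apart. The tables hold lncRNA transcripts only, so the defining protein-coding markers of cardiomyocytes were not analysed here and the labelled cell type could not be checked.

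LncRNAs are transcripts that are not known to be translated into protein. Some act in the nucleus on the transcription of nearby genes, and others act in the cytoplasm on mRNAs, microRNAs or proteins. Many are spliced, and a gene can give several overlapping transcripts (isoforms) through alternative start sites, splice sites or ends. A change in the level of an isoform can come from a change in the output of the locus or from a change in which isoform is made, and short reads that fall in a shared exon do not by themselves tell isoforms apart. NONCODE, the database behind most identifiers here, lists such transcripts with little annotation of function, so no function is stated for the members.

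The lncRNA counts summed to 846946 in N24, 1069067 in H24, 1075428 in N48 and 904979 in H48. In the same order, the listed transcripts numbered 16715, 17110, 17210 and 16762. The totals behind the FPKM values were 11877895, 15654067, 14855771 and 14225730. Depth and the number of listed transcripts were thus also higher in H24 and N48 than in N24 and H48. The part of depth in the members' patterns was not tested. Over the 5038 transcripts, the median log2 ratio of high over normal glucose was -0.04 at 24 h and -0.18 at 48 h. TMM factors moved these medians to 0.05 and 0.00. Under TMM factors 34 of the 37 and 38 of the 42 members still met the rule. Under median-of-ratios size factors 35 and 38 did, and 34 and 40 did once every library had been given 1 common lncRNA sum. At 24 h, 3.31% of the 5038 had a ratio of 2 or more and 3.37% a ratio of 0.5 or less. At 48 h the shares were 4.19% and 7.44%. By the same thresholds, both times agreed in direction for 35 transcripts that were higher (0.695%) and for 40 that were lower (0.794%). Since the rule set the members' ratios, these counts are a description.

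**Figure D1:**
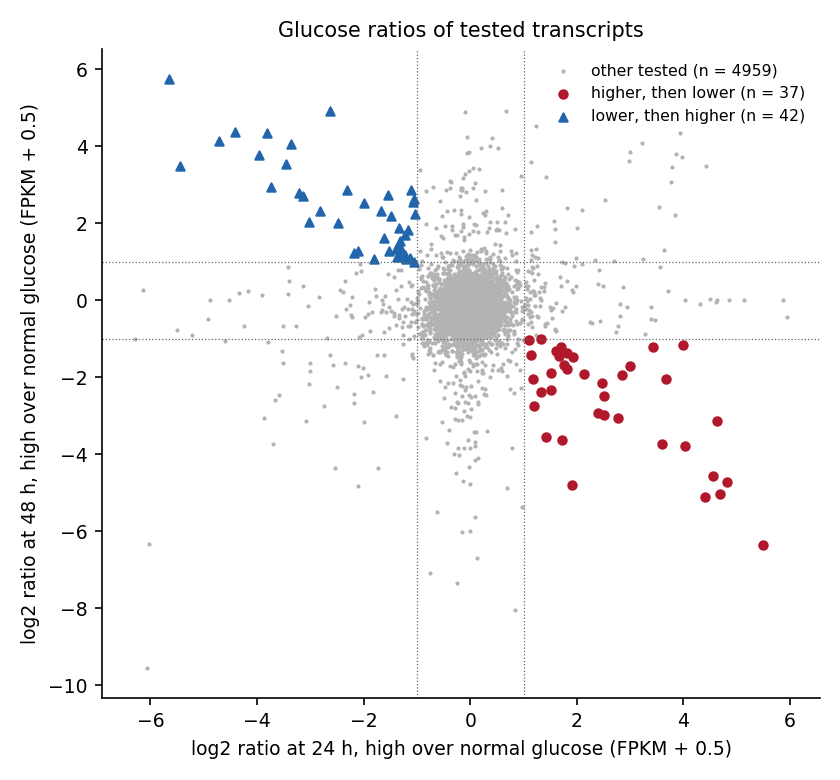
Log2 ratio of (FPKM + 0.5), high over normal glucose, at 24 h (x axis) and at 48 h (y axis), 1 point per transcript with a mean count of 20 or more. The 37 members that were higher at 24 h and lower at 48 h lie at the lower right and the 42 of the other direction at the upper left, beyond the dotted lines at a log2 ratio of 1 and -1 that the rule sets.

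In the first direction, high glucose above normal at 24 h and below it at 48 h, the members with the widest separation were near absent from N24 and from H48 and plainly present in the other libraries. NONRATT003363.2 (chromosome 1, 215745789 to 215746158, build rn6, spliced, 330 nt by a length recovered from count and FPKM) had 0 reads in N24, 114 in H24, 198 in N48 and 0 in H48. Against a floor of 3 counts per library it was at least 28.8-fold higher in H24 and at least 63.2-fold lower at 48 h. Its log2 ratios on the (FPKM + 0.5) scale were 5.50 and -6.35, the widest in this direction.

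NONRATT030593.2 (chromosome X, 71552333 to 71555281, spliced, 2886 nt) stood at 0.03 FPKM in N24 and 11.9 FPKM in H24, and at 14.2 FPKM in N48 and 0.12 FPKM in H48. The reads behind these levels were 1, 537, 610 and 5. The fold of counts scaled by library total was 407 higher at 24 h (95% counting interval 72.8 to 16123) and 117 lower at 48 h (49.8 to 361). The high libraries of this transcript, H24 and N48, were within a factor of 1.5 of each other. Such intervals are exact given the sum of both counts. They cover counting error only, because the labels name no molecular identifiers and amplified reads are not independent molecules. The transcripts were also chosen by large ratios of these same counts. The choice tends to overstate the folds, the intervals do not allow for it, and all 79 members have intervals that exclude 1 at both times.

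NONRATT012360.2 (chromosome 17, 18441958 to 18442842, unspliced, 885 nt) had 2, 264, 222 and 2 reads, in the order N24, H24, N48, H48 that is used from here on. A transcript is called unspliced where its length equals its span. With high glucose NONRATT012360.2 was 100.2-fold higher at 24 h (27.5 to 831), then 106-fold lower at 48 h (29.1 to 883). NONRATT006527.2 (chromosome 11, 46191168 to 46206316, spliced, 971 nt) had 0, 189, 230 and 0 reads. It was at least 47.8-fold higher at 24 h and at least 73.4-fold lower at 48 h. In both transcripts the pair of low libraries held no more than 2 reads each.

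NONRATT026818.2 (chromosome 7, 70351820 to 70355576, spliced, 2342 nt) had 0, 281, 235 and 1 reads. NONRATT030737.2 (chromosome 7, 141878162 to 141879601, unspliced, 1440 nt) had 3, 172, 185 and 4 reads. NONRATT013736.2 (chromosome 18, 27430926 to 27433048, spliced, 851 nt) had 2, 57, 55 and 1 reads. All 3 had nearly even counts in their high libraries.

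NONRATT022625.2 (chromosome 5, 144334170 to 144335141, unspliced, 972 nt) stood at 0.35, 20.4, 32.7 and 3.25 FPKM, so its high glucose level at 48 h was low but clearly above that of N24. NONRATT009300.2 (chromosome 14, 33335611 to 33362193, spliced, 871 nt) stood at 1.64, 11.7, 11.7 and 1.05 FPKM. Neither was absent from any library, and in both the pair of high libraries lay above the pair of low libraries.

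Over all 37 members of this direction, the median level was 0.35 FPKM in N24, 5.92 in H24, 6.70 in N48 and 0.51 in H48. The median log2 ratios were 2.14 and -2.14. 14 of the 37 exceeded 4-fold at both times and 8 exceeded 8-fold. The most abundant by mean count was NONRATT018275.2 (chromosome 3, 62486953 to 62491356, spliced, 4317 nt), named after its values were seen, with 125, 2512, 2738 and 611 reads. Its fold was 15.2 higher at 24 h (12.7 to 18.4), then 4.29 lower at 48 h (3.93 to 4.69), and it kept more reads in H48 than in N24.

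In the second direction, high glucose below normal at 24 h and above it at 48 h, the members with the widest separation had most of their reads in N24 and H48 and few or none in the other libraries. NONRATT026300.2 (chromosome 7, 142239123 to 142243459, spliced, 742 nt) had 218 reads in N24, 0 in H24, 0 in N48 and 280 in H48. It was at least 95.8-fold lower at 24 h and at least 97.5-fold higher at 48 h. On the (FPKM + 0.5) scale its log2 ratios were -5.66 and 5.76, the widest of this direction.

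NONRATT000490.2 (unspliced, 3122 nt, on chromosome 1 from 82230930 to 82234051) stood at 13.2 FPKM in N24 and 0.14 FPKM in H24, and at 0.02 FPKM in N48 and 10.3 FPKM in H48. Its reads were 490, 7, 1 and 456. The fold was 92.3 lower at 24 h (44.4 to 231), then 476 higher at 48 h (85.0 to 18849). No other listed transcript overlapped it.

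NONRATT000761.2 (chromosome 1, 116676698 to 116677607, unspliced, 910 nt, alone at its locus) stood at 9.53, 0.14, 0.15 and 8.34 FPKM, from 103, 2, 2 and 108 reads. Its level at 24 h was 67.9-fold lower with high glucose (18.3 to 568), and at 48 h it was 56.4-fold higher (15.2 to 472). Within each pair, N24 with H48 and H24 with N48, its FPKM differed by less than 1.5-fold.

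NONRATT018206.2 (chromosome 3, 53640655 to 53641604, unspliced, 950 nt) had 202, 3, 3 and 162 reads. NONRATT009519.2 (chromosome 14, 84136957 to 84137493, unspliced, 537 nt) had 52, 1, 1 and 93 reads. NONRATT026410.2 (chromosome 7, 4127391 to 4127839, unspliced, 449 nt) had 180, 2, 2 and 54 reads, which made its level in H48, 8.45 FPKM, lower than its 33.8 FPKM in N24. These 3 were alone at their loci, as were NONRATT031234.2 and NONRATT011287.2.

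NONRATT031234.2 (chromosome X, 116752819 to 116754309, unspliced, 1491 nt) had 160, 5, 5 and 108 reads, and NONRATT011287.2 (chromosome 16, 7344654 to 7345508, unspliced, 855 nt) had 191, 21, 5 and 69. NONRATT004626.2 (chromosome 10, 64979905 to 64994920, spliced, 1269 nt) had 70, 0, 0 and 141 reads, at least 30.8-fold lower at 24 h and at least 49.1-fold higher at 48 h.

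Over all 42 members of the second direction, the median level was 6.62 FPKM in N24, 0.95 in H24, 1.27 in N48 and 7.30 in H48. The median log2 ratios were -1.64 and 2.22. 16 of the 42 exceeded 4-fold at both times and 8 exceeded 8-fold. Members with no more than 5 reads in each low library numbered 10 here and 11 in the first direction.

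**Figure D2:**
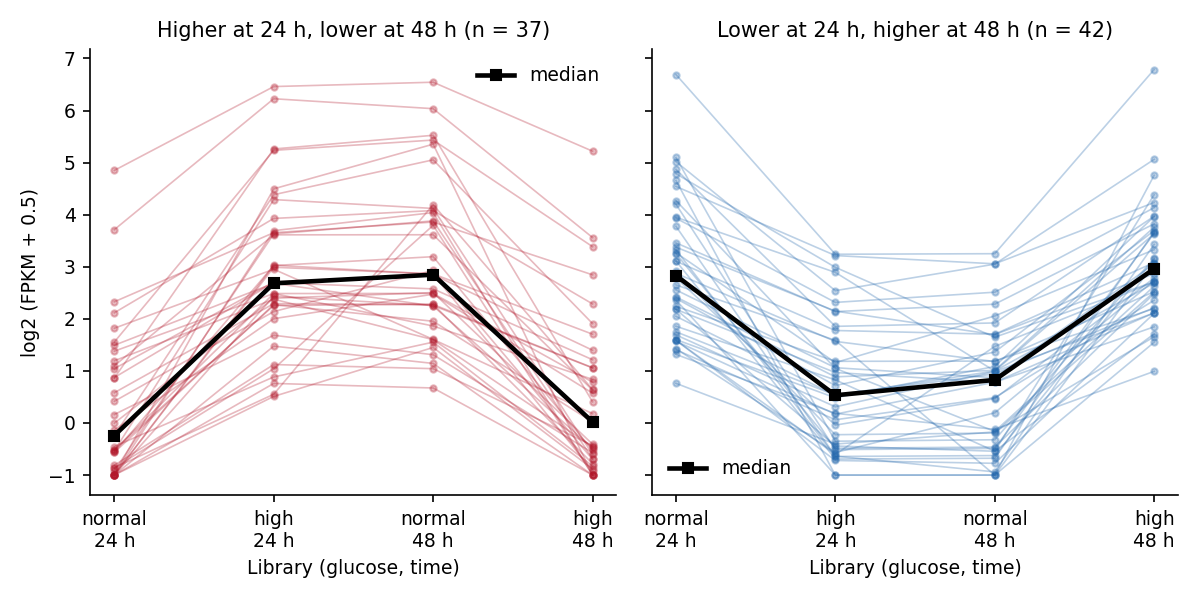
Levels of each member, log2 (FPKM + 0.5), in the 4 libraries. Thin lines are single transcripts and the black line is their median. The median of the 37 members at the left is high in H24 and N48, and that of the 42 at the right is high in N24 and H48. Single members depart from this, and in 4 of the 79 the pairs overlap.

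At the edge of the rule the values were close to the threshold on either side. The 3 members nearest to it were NONRATT011497.2 (ratios of 0.481 at 24 h and 2.01 at 48 h), NONRATT016931.2 (2.51 and 0.495) and NONRATT011463.2 (2.15 and 0.491). Just outside lay NONRATT021319.2 (1.98 and 0.488), NONRATT024226.2 (2.12 and 0.505) and NONRATT006827.2 (1.95 and 0.0242). The last had 0, 3, 121 and 0 reads, so its ratio at 24 h rests on 3 reads and nearly all its reads were in N48. NONRATT011463.2 had 15, 48, 28 and 11 reads, and its counting interval for the fold at 48 h ran from 1.18 to 5.43. 16 of the 79 had a mean count under 30, and a further 74 transcripts met both ratios with a mean count below 20.

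Whether the libraries part crosswise was asked of each member, that is, whether H24 and N48 stand together against the other pair. With a library counted as high when it held at least the highest FPKM divided by 8, 33 of the 79 did so: 16 with H24 and N48 high, and 17 with the reverse. Of the others, 20 had 1 library alone low, 2 had 1 library alone high and 24 had no library low by this measure. Parted at the widest gap in log2 (FPKM + 0.5) instead, 60 of the 79 were crosswise, 29 in the first direction and 31 in the second, and 30 transcripts were crosswise by both measures.

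The pairs did not overlap in 75 of the 79 members, where the lower of the pair of high libraries stood above the higher of the low libraries. Over the 5038 transcripts H24 and N48 stood above the other pair in 17.5%, and the reverse was seen in 10.5%. The count for the members is made from the values that the rule used, which nearly forces it, so it is a description. The exceptions were NONRATT014572.2 and NONRATT026049.2 in the first direction and NONRATT025362.2 and NONRATT025796.2 in the second. NONRATT014572.2 stood at 0.05, 0.97, 17.8 and 1.06 FPKM, high in N48 alone. NONRATT025362.2 stood at 5.79, 2.50, 0 and 2.43 FPKM, with N48 alone at 0 reads.

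The separation by at least 2-fold on the (FPKM + 0.5) scale held for 31 of the 37 members of the first direction and for 27 of the 42 of the second. These were 0.615% and 0.536% of the 5038, and since such a separation meets the rule by itself, every transcript that showed it was a member. Within the pair of high libraries, 66 of the 79 differed by less than 2-fold and 53 by less than 1.5-fold. Within the pair of low libraries 63 differed by less than 2-fold, and in 56 members both pairs did. How many of the 5038 lay as close within these pairs was not counted, so closeness is not shown to be particular to the members. The median log2 difference of the 48 h over the 24 h library was 0.04 within the high pair and 0.02 within the low pair, with ranges from -2.08 to 3.64 and from -2.59 to 2.70.

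The same values seen as change with time in each medium give 58 of the 79 with at least 2-fold in both media. In the first direction the median log2 ratio of 48 h over 24 h was 2.51 in normal and -2.25 in high glucose, and in the second it was -1.69 and 2.16. The time ratios are made from the 4 values that the rule used, so they add no evidence of their own.

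Over all 5038 transcripts, 36 (0.715%) parted crosswise by the measure with 8, and 33 of these were members, which the rule makes likely. The other ways in which 4 libraries can part 2 against 2 were seen for 35 transcripts by time and 22 by medium. At the widest gap, which parts every transcript however small its differences, the counts were 356 crosswise, 431 by time and 539 by medium. Which of these partings comes first therefore depended on the measure. If the labels of N48 and H48 were exchanged, or those of N24 and H24, each member would instead have 2 ratios that point one way. The 35 transcripts higher at both times and the 40 lower at both times would then meet the rule in their place. With 1 library per group, such an exchange and the labelled order cannot be told apart from these values.

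**Figure D3:**
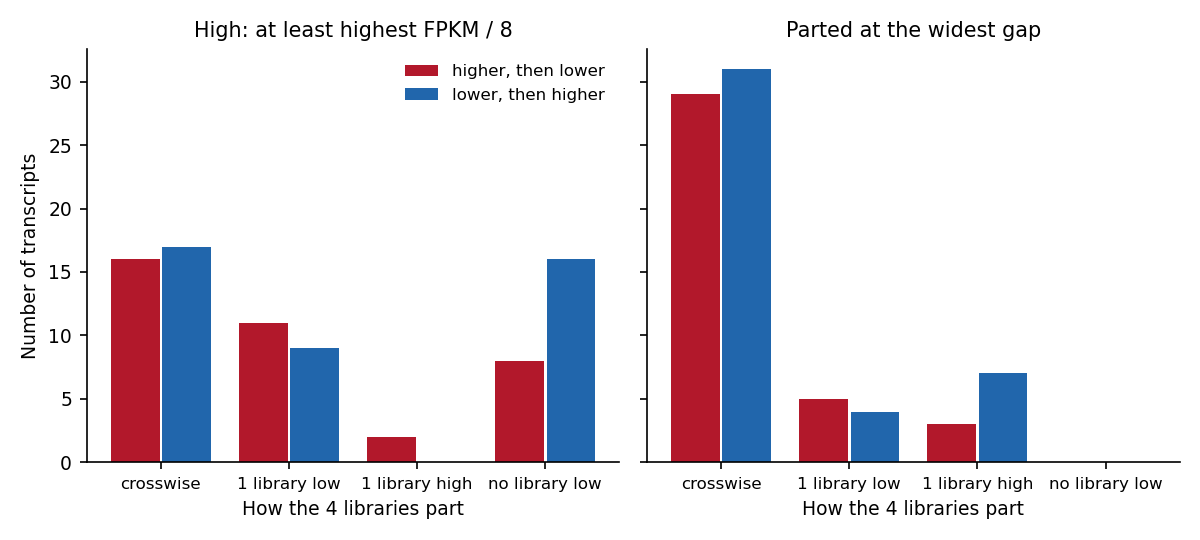
Number of members (y axis) by how their 4 libraries part, with high defined as at least the highest FPKM divided by 8 (left) or by the widest gap (right). Crosswise members number 16 and 17 at the left and 29 and 31 at the right in the first and second directions.

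Members lay at a shared locus more often than the 5038 transcripts as a whole, a property that the rule did not use. 42 of the 79 members (53.2%) shared their locus with at least 1 other listed transcript, a locus being a chain of spans that overlap by at least 1 base. The share was 34.0% over the 5038, 40.0% for the 35 transcripts higher at both times and 37.5% for the 40 lower at both times. It was 59.5% in the first direction and 47.6% in the second. These shares count transcripts and not loci: the 79 members lay at 75 loci, and 4 pairs of members shared a locus. No test was run on these shares, and overlap does not take strand into account because the tables give none.

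Unspliced transcripts made up 27 of the 79 members (34.2%), against 49.7% of the 5038, 31.4% of those higher at both times and 37.5% of those lower at both times. The smaller share of unspliced transcripts was thus also seen in transcripts with ratios in the same direction. The median length was 972 nt for the members and 1019 nt for the 5038. By identifier, 76 members were from NONCODE, 3 were assembled transcripts and 0 were from Ensembl, where the 5038 held 4812, 136 and 90.

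Members were found on 21 chromosomes. The largest shares, picked after they were seen, were on chromosomes X, 16, 7, 14 and 6. Chromosome X held 8 of its 166 transcripts with a mean count of 20 or more (4.82%). Chromosome 16 held 6 of 167 (3.59%), chromosome 7 held 10 of 310 (3.23%), chromosome 14 held 5 of 162 (3.09%) and chromosome 6 held 7 of 228 (3.07%). The share over all was 1.57%. The counts are small, members at the same locus are counted separately, as on chromosomes 6 and 16, and no test was run. Chromosome 1, with the most transcripts, held 6 of 595 (1.01%). 7 pairs of members lay within 1 Mb of each other, 4 of them at the same locus. NONRATT030737.2 and NONRATT026300.2 on chromosome 7 lay 359521 bases apart and had opposite directions.

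At 3 loci, 2 overlapping members moved in opposite directions. The clearest was on chromosome 6, where NONRATT024782.2 (6696340 to 6709774, spliced, 766 nt) and NONRATT024781.2 (6696170 to 6709782, spliced, 821 nt) cover nearly the same span and are the only listed transcripts. NONRATT024782.2 had 12, 454, 518 and 9 reads. NONRATT024781.2 had 1003, 115, 110 and 1284 reads.

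Their shares of the summed reads changed over. NONRATT024781.2 took 98.8% of the sum in N24 and 99.3% in H48, but 20.2% in H24 and 17.5% in N48. The sum itself was 104.2 FPKM in N24, 46.8 in H24, 54.5 in N48 and 110.8 in H48. The locus total was thus also crosswise, with log2 ratios of -1.15 and 1.02, smaller than those of NONRATT024781.2 (-3.45 and 3.54) and opposite in sign to those of NONRATT024782.2 (4.40 and -5.12).

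Also on chromosome 6, NONRATT024331.2 (86785788 to 86810834, spliced, 3645 nt) and NONRATT024332.2 (86785788 to 86812078, spliced, 4452 nt) begin at the same base of the annotation. NONRATT024331.2 had 166, 840, 888 and 227 reads, and NONRATT024332.2 had 781, 312, 344 and 1080. NONRATT024331.2 took 17.5% of their summed reads in N24, 72.9% in H24, 72.1% in N48 and 17.4% in H48.

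Here the total of the locus, which holds 6 listed transcripts, hardly moved: it was 30.1, 30.7, 35.0 and 33.7 FPKM, with log2 ratios of 0.03 at 24 h and -0.06 at 48 h. The partners NONRATT024333.2 and NONRATT024334.2, which overlap both members, had log2 ratios between -0.12 and 0.05. The ratios of the members, 1.81 and -1.79 for NONRATT024331.2 and -1.62 and 1.62 for NONRATT024332.2, were therefore seen beside an even total.

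On chromosome 10, the assembled transcripts MSTRG.3899.1 (81828685 to 81839587, spliced, 3318 nt) and MSTRG.3899.3 (81829824 to 81839560, spliced, 2155 nt) had lower counts. MSTRG.3899.1 had 0, 48, 110 and 2 reads, and MSTRG.3899.3 had 80, 43, 6 and 85. The H24 reads were split nearly evenly between them, at 52.7% and 47.3% of the summed reads, so this locus parted less cleanly. The total of its 4 transcripts ran from 8.42 to 9.86 FPKM.

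**Figure D4:**
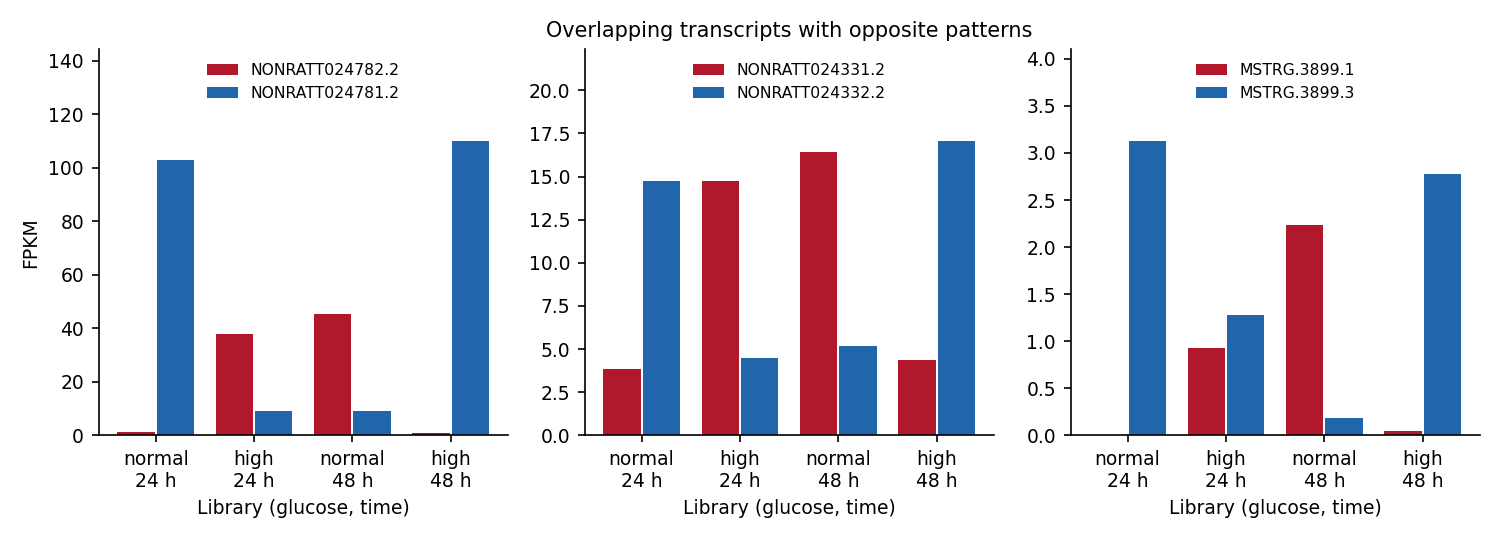
FPKM (y axis, from 0) of the 2 members at each of 3 loci in the 4 libraries. NONRATT024781.2 stands at 103 and 110 FPKM where NONRATT024782.2 is at 1.32 and 0.83, and NONRATT024331.2 and NONRATT024332.2 change places in the same libraries.

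The fourth locus with 2 members, on chromosome 16, held NONRATT011369.2 (19763146 to 19765298, spliced, 818 nt) and NONRATT011373.2 (19763514 to 19765781, spliced, 749 nt), which moved together. NONRATT011369.2 had 102, 50, 53 and 159 reads and NONRATT011373.2 had 203, 103, 87 and 195. The overlapping partner NONRATT011372.2 had 67, 107, 125 and 112 reads and did not follow them, with log2 ratios of 0.26 and -0.09.

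Over the 42 members with overlapping partners, the locus total moved less than the member. The median size of the log2 ratio was 1.74 at 24 h and 2.05 at 48 h for the members, and 0.56 and 0.74 for the totals of their loci, which include the member. For 27 of the 42 members the total stayed within 2-fold at both times. These medians and counts are per member, so the total of a locus with 2 members, of which there were 4, enters for each. The total kept the signs of the member's ratios for 31 of the 42 and met both thresholds for 7, 4 in the first direction and 3 in the second. Since the total contains the member, it is not independent of the rule. Members were chosen for large ratios and most of the added partners were not, so a smaller ratio of the total is largely built in. How many of all loci stayed within 2-fold was not counted, and most of the 5038 transcripts taken singly did. The 27 therefore do not show that these loci were steady.

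Those 7, named after their values were seen, were NONRATT026818.2, NONRATT013736.2, NONRATT018275.2, NONRATT020646.2, NONRATT024781.2, NONRATT026931.2 and NONRATT015915.2. The locus total of NONRATT018275.2 was 4.72, 39.7, 43.8 and 10.4 FPKM. That of NONRATT026931.2 was 7.17, 0.46, 0.71 and 5.33 FPKM. In both, the member made up most of the total in the libraries where it was high. For the 37 members that overlapped no other listed transcript the locus total is the member's own value, so it adds nothing.

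**Figure D5:**
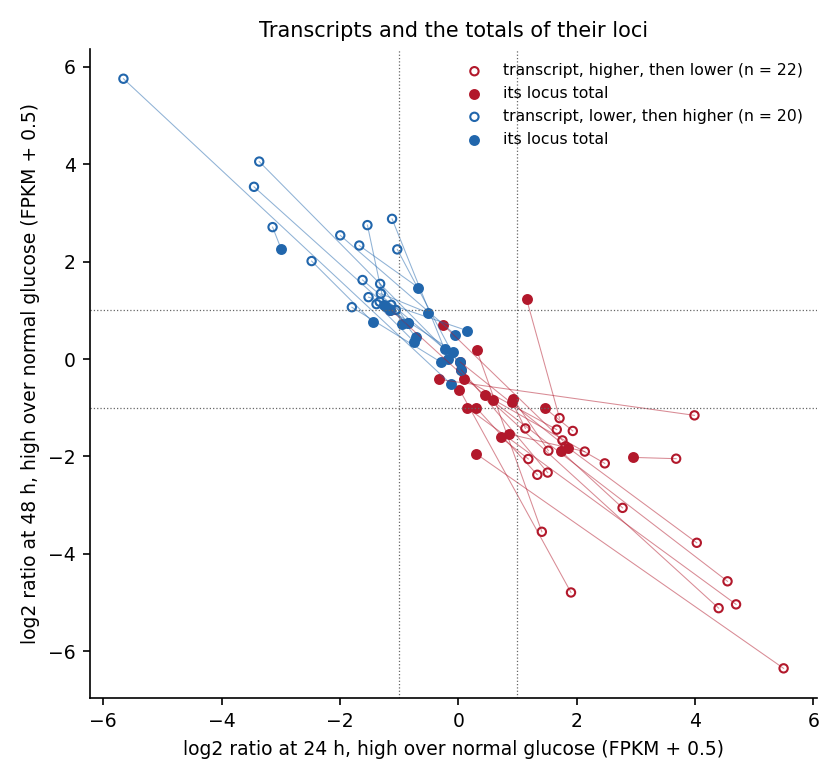
Log2 ratios of (FPKM + 0.5), high over normal glucose, at 24 h (x axis) and 48 h (y axis) for the 42 members with overlapping partners (open circles) and for the summed FPKM of their loci (filled circles), joined by lines. 27 of the totals lie within the dotted lines at 1 and -1 at both times. How many of all loci would lie there was not counted.

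NONRATT030593.2 illustrates a member beside steadier partners. Its locus on chromosome X (71528988 to 71556089) held 4 listed transcripts. NONRATT030591.2, which ends within the span of NONRATT030593.2, had 182, 157, 139 and 201 reads, and NONRATT030592.2 had 16, 22, 28 and 15. The locus total was 18.2, 25.2, 28.3 and 16.7 FPKM, and NONRATT030593.2 took 0.16%, 47.2%, 50.2% and 0.73% of it.

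NONRATT003363.2 overlapped the unspliced NONRATT003362.2 (chromosome 1, 215744405 to 215745948, 1544 nt), which had 536, 337, 567 and 364 reads and so was present in every library. NONRATT004626.2 lies within the longer NONRATT004625.2 (chromosome 10, 64979265 to 65013867, 4200 nt), which stood at 22.2, 22.8, 24.2 and 20.1 FPKM. NONRATT006527.2 overlapped NONRATT006528.2, with 420, 486, 404 and 187 reads. None of these 3 partners was near absent where the member was.

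NONRATT026300.2 had 5 listed partners. Among them NONRATT026298.2, with nearly the same span (chromosome 7, 142238799 to 142243185, spliced, 736 nt), had 375, 542, 555 and 0 reads, so it was not listed in H48, where NONRATT026300.2 had 280 reads. In N24 both were present, with 218 and 375 reads. NONRATT026294.2, which also overlaps, had 32, 33, 37 and 206 reads. The locus total was 94.6, 86.6, 95.2 and 66.6 FPKM.

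Of the 62 pairings of a member with a partner of mean count 20 or more, 38 had a partner within 2-fold at both times. Most of the 5038 were also within 2-fold. The shares beyond it were 3.31% and 3.37% at 24 h and 4.19% and 7.44% at 48 h. The 38 of 62 therefore does not show that partners are steadier than other transcripts. By sign, which overlaps the class within 2-fold, 21 of the 62 pairings had a partner opposite to the member at both times. In 10 the partner had the same sign. The 62 pairings hold 56 distinct partners. Of these pairings, 8 join members to each other and enter once from each side, and 6 of the 8 are among the 21. Over all transcripts of that mean count, 43.4% had ratios of opposite sign at 24 h and 48 h. Their split by direction was not counted, so 21 against 10 does not show that partners tend to oppose members. Among the partners of that mean count, 1 at least 2-fold the other way at both times was found for 6 members, those of the 3 loci above. Below that mean count, NONRATT006773.2 (21, 8, 6 and 32 reads), beside the member NONRATT006772.2, also had such ratios, with log2 values of -1.27 and 1.75. Neither the labels nor the file headers say by which rule shared reads were assigned to an isoform, and the part of that rule in these patterns was not tested.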

How the data were processed

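LncRNA transcripts of rat cardiomyocytes were measured in 4 libraries of strand-specific total RNA, grouped by their titles. The submitters' processing notes name TopHat2 2.1.0, Cufflinks and the builds rn6 and Rnor_6.0. No source used here gives the counting tool or its use of strand. The authors deposited raw read counts and FPKM per transcript, per the file headers, and list a transcript where it had 1 read or more. Lengths were deposited for the N24 library alone, and the lengths of 8 members were recovered from count, FPKM and the library total. That total is the median that gives count, length and FPKM together. All but 2 transcripts in N24 and 2 in H24 fitted it within 1%. A length within 0.5% of the span was taken as unspliced. The reference gene table, of assembly GRCr8, paired 0 of the 17934 identifiers with a symbol, so no gene names or sequences are given.

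Ratios were taken of (FPKM + 0.5), which understates the change of low transcripts. Folds printed for single transcripts compare CPM (counts scaled by the recovered total), with exact Clopper-Pearson intervals at 95%, or bounds against a floor of 3 counts per library. 1 read was worth between 0.0639 and 0.0842 CPM. With 1 library per group no count model was fitted. Factors came from edgeR 4.0.16 (TMM) and DESeq2 1.42.0 (size factors), and the scripts ran in Python 3.11.15. The code of the rule was checked on simulated counts with planted crosswise changes and counting error alone. Those counts held no variation between cultures or libraries, so they do not show how often such variation would meet the rule. Members, lists and named transcripts were chosen with earlier results of these data known. Named were the 3 examples, the 10 members per direction with the largest smaller log2 size, members that share a locus, and the 3 transcripts on either side of the threshold. Others are marked as named after their values were seen or stand as partners or exceptions. Alternatives in pseudocount, filter, scaling, unit, threshold and locus overlap were run.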

Additional observations from a re-analysis of the deposited data

Results flagged for a closer look

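The ratio of high over normal glucose pointed in opposite directions at 24 h and 48 h for 37 transcripts that were higher and then lower and for 42 that were lower and then higher. This is how they were chosen, the difference between the times was not tested, and each time rests on 1 library per medium. The summed FPKM of the locus, which contains the member and so is not independent of the choice, met the same thresholds for 7 of the 42 members with overlapping partners, again without a test.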

How the results depend on the processing

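No paired analysis was possible because each group holds 1 library, and for the same reason no library could be left out. The members in the first and second directions numbered 37 and 42. A mean count of 50 or more gave 23 and 27, a mean count of 5 or more 74 and 64, and no filter 82 and 71, where fewer or more transcripts enter. A threshold of 4-fold, on the same 5038 transcripts, gave 14 and 16. Other pseudocounts, scalings, CPM and, added after seeing the data, transcripts listed in all 4 libraries gave between 28 and 50 in the first and between 32 and 50 in the second direction, within 1.5 times. Crosswise members rose from 33 to 60 at the widest gap and were 44 with the highest FPKM divided by 4. Locus totals that met the rule numbered between 6 and 9, and members with a partner the other way 6 or 7. Transcripts near a mean count of 20 have too few reads in their low libraries to fix a ratio closely. Low reads were not confined to them. 37 of the 79 members (46.8%) had 5 or fewer reads in at least 1 library, against 4.29% of the 5038. The rule favours this because it chose members by large ratios.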
